A study of Mus musculus with 24 samples.

Results

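The comparison described here sets MPP4 against MPP3, the lymphoid-biased and the myeloid-biased classes of multipotent progenitor in mouse bone marrow. Its members are the 6 MPP4 and the 6 MPP3 libraries among the 24 libraries of the study, chosen by their labels and not by any measured value. Accessible chromatin was measured by ATAC-seq, in which the Tn5 transposase cuts open DNA and leaves sequencing adapters there. CD45.1+ marrow from WT donors had been placed into young CD45.2 recipients that were either WT or of a line written IκB–, whose genetic change the labels do not describe. Donor cells were sorted from the femur and tibia 13 to 15 weeks later, with 500 to 1500 cells per sample. All profiled cells in all groups were therefore of WT donor origin, and the recipient is what differs between WT and IκB– groups. Both subsets were sorted as CD45.1+, Lin–, Sca1+ and cKitHi. MPP3 cells were also Flt3–, CD150– and CD48+, whereas MPP4 cells were taken as Flt3+ with no CD150 or CD48 gate stated. Each of the 4 groups had 3 libraries. The labels do not say that samples of a group came from separate animals, so the p-values below measure the spread between these samples.

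MPP3 and MPP4 cells are both short-lived offspring of blood stem cells that no longer sustain a graft for life. MPP3 cells chiefly feed granulocytes and macrophages, through factors such as PU.1 (Spi1) and C/EBPα (Cebpa). MPP4 cells, also called lymphoid-primed progenitors, carry the cytokine receptor Flt3 and feed the lymphoid lineages under factors such as Ikaros (Ikzf1). IκB proteins hold the transcription factor NF-κB in the cytoplasm. NF-κB binds κB sites in DNA once these inhibitors are degraded, and it drives the genes of several of its own inhibitors.

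Replicates 2 and 3 of WT MPP3 differed by less than sampling noise: a chi-square test of their counts at 13121 regions gave 0.995 per degree of freedom (p 0.670), and all other pairs within the 4 groups gave 1.38 to 3.05. Their counts were summed and counted as 1 sample, which leaves 11 replicates, 5 of MPP3 and 6 of MPP4, and n = 2 for WT MPP3. The fit with the 12 libraries kept apart, 6 against 6, is given beside the main values where it differs. Values are counts per region scaled to 1000000 per library (CPM) on TMM-scaled library sizes, and a fold change is the log2 ratio of MPP4 to MPP3 fitted by edgeR with its standard error (SE). A region was called when its Benjamini-Hochberg adjusted p in edgeR's quasi-likelihood test was under 0.05. In a sorted population, fewer cells with an open region and less opening in each cell cannot be told apart.

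Over both recipient types, with 11 replicates and recipient type as a covariate, 0 of 13373 regions tested were called (0%). DESeq2 and limma-voom called 0 as well; 474 and 799 regions passed 0.05 there before adjustment. Without adjustment, 442 regions were higher in MPP4 at a p under 0.05 (3.31%) and 203 lower (1.52%), 645 in all, where 669 would be expected if no region differed. The smallest adjusted p was 0.0831. With the 12 libraries apart 1 region was called, near Cenpe, with an adjusted p of 0.0492, and 706 had an unadjusted p under 0.05. With the replicate number of each recipient type as a block, also over 12 libraries, 7 of 12673 regions were called (0.0552%), all higher in MPP4. That fit uses WT replicate numbers, which did not meet the criterion for pairs, and keeps WT MPP3 replicates 2 and 3 as separate samples. With the block in IκB– recipients alone and 11 replicates, an alternative chosen after seeing the data, 6 of 13373 were called (0.0449%), the same regions without the one on chromosome 18. In the fit with 7 calls, the log2 fold change at the Cenpe region was 0.66 in WT and 2.96 in IκB– recipients. It was 0.91 and 1.02 at a region 1376 bp from Kpna1, which encodes a nuclear import receptor, and 0.79 and 1.01 at an end of Lars2, which encodes a mitochondrial leucyl-tRNA synthetase. Inside Cdk8, a Mediator kinase gene, it was 0.67 and 0.96. The other 3 had no gene within 50 kb: chr11:109011514-109012092 at 0.91 and 0.78, chr18:68691967-68692296 at 1.06 and 1.05, and chr6:3201311-3201681 at 0.92 and 1.03. In that fit the region over the ribosomal RNA pseudogene Rn18s-rs5 was at 0.80 and 0.79. It was not called over both recipient types (adjusted p 0.0599 in edgeR). The part of depth in these calls was not tested. The 645 regions became 311 without IκB– MPP4 replicate 1, 1036 without WT MPP4 replicate 3 and, thinned to 1 depth, 295 of 6864 tested. Their split moved with scaling: on total counts 367 of 637 were higher, and after cyclic loess scaling 389 of 697. With each library's share of counts at gene ends as a covariate it turned, with 190 of 415 higher.

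The gene that defines the MPP4 gate, Flt3, encodes the receptor tyrosine kinase for Flt3 ligand. It had 3 tested regions, and each was fitted higher in MPP4 than in MPP3, in both recipient types. Since Flt3 protein was used to sort the cells, these values check the labels and are not a separate finding about them. The clearest was a region inside the gene at chr5:147366418-147366731, 33758 bp from the nearer gene end. Its level was 32.2 and 52.3 CPM in WT MPP3, and 58.8, 48.3 and 56.2 CPM in WT MPP4. In IκB– recipients it was 34.9, 22.5 and 40.7 CPM in MPP3, and 91.0, 56.6 and 82.6 CPM in MPP4. All IκB– MPP4 libraries were above all IκB– MPP3 libraries, while the WT groups overlapped. Over both recipient types MPP4 had 65.6 ± 17 CPM (SD, n = 6) and MPP3 had 36.5 ± 11 CPM (SD, n = 5). The log2 fold change was 0.87 (SE 0.27, unadjusted p 0.00237), and the adjusted p of 0.792 from edgeR did not pass the threshold. In IκB– recipients alone it was 1.28 (SE 0.34, adjusted p 0.117; 0.0184 with the block in both recipient types and 0.0600 with it in IκB– recipients alone), and in WT recipients 0.32 (SE 0.40). The test of that difference gave an adjusted p of 0.831. With limma-voom 1 Flt3 region was called in IκB– recipients.

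The other Flt3 regions were less separated. The region at chr5:147341072-147341291, 10331 bp from a gene end, had 24.1 and 14.7 CPM in WT MPP3 and 58.8, 14.9 and 15.3 CPM in WT MPP4. Its IκB– values were 19.5, 7.51 and 14.6 CPM in MPP3 and 51.2, 16.2 and 39.6 CPM in MPP4. A single WT MPP4 library stood well above the others of its group, and the groups overlapped in both recipient types. The log2 fold change was 0.99 (SE 0.43, unadjusted p 0.0256, adjusted p 0.999 in edgeR). The region over the start of Flt3, chr5:147400166-147400583, differed least, at 86.8 ± 37.7 CPM in MPP4 (SD, n = 6) against 71.3 ± 20.9 CPM in MPP3 (SD, n = 5). Its log2 fold change was 0.29 (SE 0.24, unadjusted p 0.219). On a scaling over all 8 groups of the study, the mean of the region 33758 bp inside the gene was higher in MPP4 than in the other subsets of the same recipient type. The protocol writes the HSC gate as CD150– CD48–, so HSC is used here only as a label. In WT recipients HSC had 31.6 CPM, MPP2 36.5, MPP3 41.9 and MPP4 53.6. In IκB– recipients the means were 28.7, 43.3, 32.5 and 75.9 CPM in the same order.

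**Figure D1:**
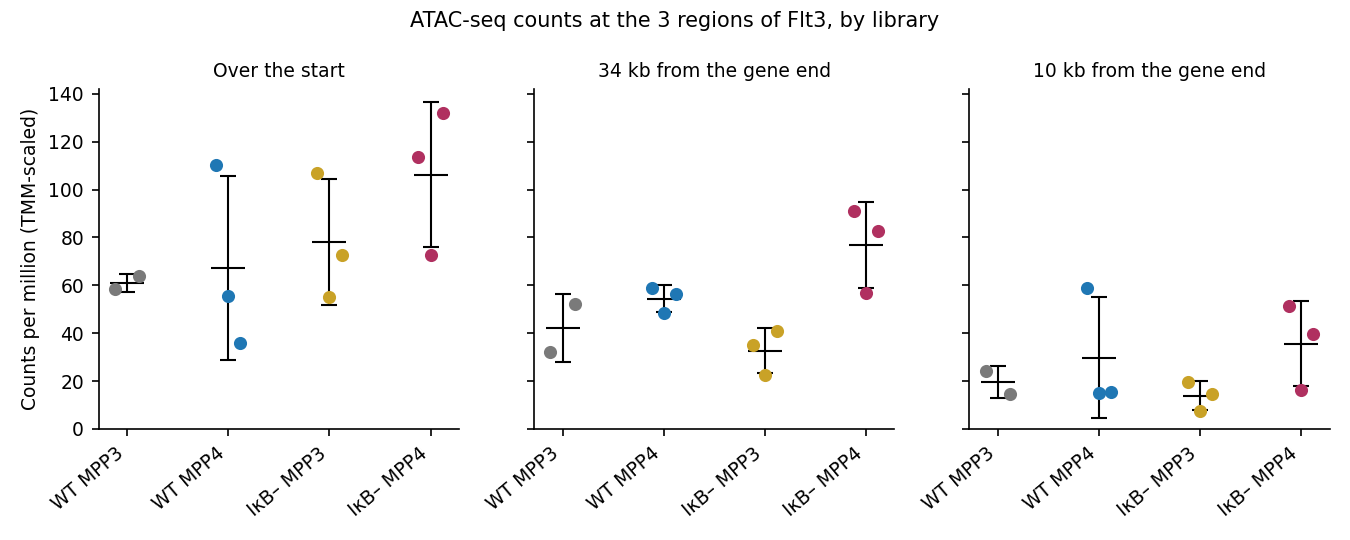
Each panel plots CPM (TMM-scaled, linear axis from 0) at 1 region of Flt3, with a point per replicate, a bar at the group mean and whiskers of 1 SD, for WT MPP3 (n = 2) and for WT MPP4, IκB– MPP3 and IκB– MPP4 (n = 3 each). Only in the middle panel, the region 33758 bp from a gene end, and only in IκB– recipients do all MPP4 points, 56.6 to 91.0 CPM, lie above all MPP3 points, 22.5 to 40.7 CPM.

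The other antigens of the gates gave little contrast, and their regions were few. Of the 6 genes Cd48, Flt3, Kit, Ly6a, Ptprc and Slamf1, 3 had a tested region, and Cd48 and Ly6a, which encodes Sca1, had none in the table used. Slamf1, which encodes the CD150 that the MPP3 gate excludes, had 1 region, inside the gene at chr1:171773271-171773506, that was under the filter on low counts. It had 2, 3 and 3 counts in WT MPP3 and 5, 6 and 1 in WT MPP4. In IκB– recipients it had 2, 0 and 0 counts in MPP3 and 1 in each MPP4 library. These counts are at or near the floor, and without the filter the log2 fold change was 1.49 (SE 0.75, unadjusted p 0.0538, adjusted p 0.997 in edgeR). In the fit of all 8 groups, where the region passed the filter, it was also 1.49 (SE 0.65, unadjusted p 0.0265, adjusted p 1 in edgeR). Kit, the stem cell factor receptor that both gates select as high, had 2 regions near its start with log2 fold changes of -0.32 (SE 0.31) and -0.27 (SE 0.36). Ptprc, which encodes CD45, had 2 regions at -0.07 (SE 0.25) and 0.39 (SE 0.24). With the 11 replicates no region of Kit or Ptprc had an unadjusted p under 0.05, and with the block in both recipient types the second Ptprc region did (0.47, unadjusted p 0.042, adjusted p 0.581 in edgeR).

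In IκB– recipients 17 regions rose in MPP4 and 0 fell (0.127% of the 13373 tested, all higher). Their log2 fold changes ran from 1.17 to 2.93, with adjusted p-values from edgeR between 0.000325 and 0.0474. In each of the 17 all 3 IκB– MPP4 libraries lay above all 3 IκB– MPP3 libraries. The same contrast chose the regions, so this separation largely follows from the choice and is a description. Most were away from gene ends: 11 lay outside genes, 5 inside a gene body and 1 within 1 kb of a gene end. Of all regions tested, 18.6% lay outside genes, 25.2% inside a gene and 56.2% within 1 kb of a gene end. With the 12 libraries apart 27 regions were called, among them the same 17. With the replicate block it was 255 of 12673 (2.01%), 231 higher (1.82%) and 24 lower (0.189%), again with the 17 among them. With the block in IκB– recipients alone and 11 replicates it was 89 of 13373 (0.666%), 85 higher (0.636%) and 4 lower (0.0299%), also with the 17. The count rested on few libraries. It was 0 without IκB– MPP4 replicate 1 and 4 without IκB– MPP4 replicate 3, and 4 without the summed sample WT MPP3 2-3. It was 7 without IκB– MPP3 replicate 1, 9 without WT MPP4 replicate 2, 11 without WT MPP3 replicate 1, and 26 and 35 without IκB– MPP3 replicate 3 and IκB– MPP4 replicate 2. After all libraries were thinned to 126519 counts it was 0, over 6864 regions, and DESeq2 called 1, while limma-voom called 67. The region near Cenpe was not among those tested after thinning. With each library's share of counts at gene ends as a covariate it was 2, of which 1 was lower.

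The largest of these changes was at chr3:135191902-135192230, outside genes and 20333 bp from the nearer end of Cenpe, which encodes a kinesin motor of the kinetochore. It had 12.3, 7.51 and 11.6 CPM in IκB– MPP3 and 105, 64.7 and 76.0 CPM in IκB– MPP4. WT recipients lay between these, with 32.2 and 22.9 CPM in MPP3 and 29.4, 55.7 and 35.8 CPM in MPP4. The IκB– groups were far apart, whereas the WT groups overlapped. In IκB– recipients the log2 fold change was 2.93 (SE 0.43, adjusted p 0.000325 in edgeR), and in WT recipients it was 0.63 (SE 0.47). Over both recipient types it was 1.86 (SE 0.36, adjusted p 0.0831, 0.00613 with the block in both recipient types and 0.0170 with it in IκB– recipients alone). The IκB– call was lost, at an adjusted p of 0.102 and a log2 fold change of 2.67, without IκB– MPP4 replicate 1.

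Changes of a similar size were found at a region without a gene within 50 kb and near Pfpl. At chr16:70725639-70725940 IκB– MPP3 had 5.13, 10.01 and 2.91 CPM and IκB– MPP4 had 56.9, 32.4 and 19.8 CPM, a log2 fold change of 2.61 (SE 0.57, adjusted p 0.0402 in edgeR). At chr19:12435136-12435487, 3026 bp from Pfpl, the values were 13.4, 15.0 and 23.3 CPM in IκB– MPP3 and 82.5, 72.8 and 66.1 CPM in IκB– MPP4. That change was 2.17 (SE 0.46, adjusted p 0.0299). In WT recipients the corresponding fold changes were 0.46 (SE 0.49) and 0.18 (SE 0.53).

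Called regions inside genes lay in Nol4, Mrpl15, Tmem132c, Tafa4 and Gpc6. In Mrpl15, which encodes a protein of the large mitochondrial ribosome subunit, the log2 fold change was 1.54 (SE 0.33). In Tmem132c it was 1.89 (SE 0.40), and in Gpc6, which encodes a cell-surface heparan sulfate proteoglycan, 1.81 (SE 0.38). The region in Nol4 had 30.8, 22.5 and 26.2 CPM in IκB– MPP3 and 85.4, 97.1 and 85.9 CPM in IκB– MPP4. Within each IκB– group its libraries were close together, and the fold change was 1.67 (SE 0.33, adjusted p 0.0299 in edgeR). The single called region at a gene end, chr13:60936525-60936916, covers an end of Ctla2a, a cysteine protease inhibitor gene with a closely related neighbour, so reads from similar copies may be assigned uncertainly there. It had 45.2, 57.6 and 32.0 CPM in IκB– MPP3 and 128, 129 and 109 CPM in IκB– MPP4, a change of 1.41 (SE 0.31, adjusted p 0.0377). WT MPP3, at 115 and 111 CPM, lay inside the range of WT MPP4, at 66.2, 160 and 61.3 CPM.

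The other 8 called regions lay outside genes, with log2 fold changes from 1.17 to 1.93. One lay 31507 bp from Tmed3, at 1.68 (SE 0.35), and another 11076 bp from Pibf1, at 1.63 (SE 0.34). No gene lay within 50 kb of chr13:106639041-106639383, chr16:51352156-51352431, chr7:129759858-129760115, chr10:96273994-96274343, chr1:144330347-144330794 and chr13:90515869-90516315.

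Levels in the remaining groups place these 17 regions. On the scaling over all 8 groups, their median level was 28.2 CPM in IκB– MPP3 and 89.9 CPM in IκB– MPP4, the contrast that chose them. It was 63.6 CPM in WT MPP3 and 57.6 CPM in WT MPP4. The mean of IκB– MPP3 was below that of WT MPP3 and of WT MPP4 in 17 of 17 regions. The mean of IκB– MPP4 was above that of WT MPP3 in 17 and above that of WT MPP4 in 16. The median was 55.5 CPM in IκB– HSC and 41.0 CPM in IκB– MPP2, and 43.0 and 32.8 CPM in the same subsets of WT recipients. Against the 4 HSC and MPP2 groups, the mean of IκB– MPP3 was lower in 14 of 17 regions for IκB– HSC, 13 for IκB– MPP2, and 11 each for WT HSC and WT MPP2. The mean of IκB– MPP4 was higher in 15, 13, 16 and 16 regions in the same order. These are descriptions, since the choice of the regions fixes a low IκB– MPP3 and a high IκB– MPP4.

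**Figure D2:**
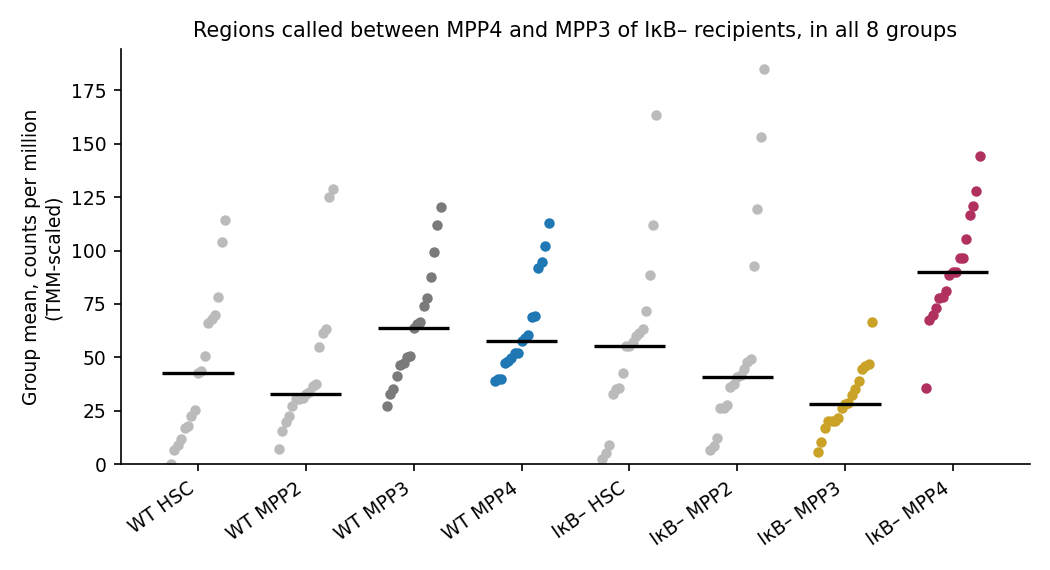
Each point is the mean CPM of 1 of the 17 regions called between MPP4 and MPP3 of IκB– recipients (linear axis from 0, TMM scaling over all 8 groups), and each bar is the median over the 17. The median is lowest in IκB– MPP3, at 28.2 CPM, and highest in IκB– MPP4, at 89.9 CPM, and the groups of WT recipients lie between them.

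In WT recipients 0 regions were called (0%), and 140 regions higher in MPP4 (1.05%) and 103 lower (0.770%) had an unadjusted p under 0.05. The 243 in all were fewer than the 669 expected if no region differed. WT MPP3 had n = 2 and the spread was estimated together with the IκB– groups. The lack of calls here therefore does not show that the WT groups are alike. Those 243 became 147 without WT MPP3 replicate 1 and 457 without WT MPP4 replicate 2. DESeq2 gave 110 such regions and limma-voom 237, with 0 called by each. On total counts the split turned, with 103 of 237 higher. The smallest p on the higher side was in Tmem131, at chr1:36919729-36920310. It had 38.2 and 52.3 CPM in WT MPP3 and 125, 104 and 117 CPM in WT MPP4, while the IκB– libraries of both subsets lay between 22.8 and 43.7 CPM. The WT groups did not overlap, but the log2 fold change of 1.32 (SE 0.36) had an adjusted p of 1 in edgeR. Fam126a and chr1:184657432-184657632 followed, with fold changes of 2.34 (SE 0.68) and 2.16 (SE 0.65). On the lower side, the start shared by Tmem63b and Mrpl14 had 6 counts in WT MPP4 against 49 in WT MPP3. The share of counts there was 4.52 times higher in MPP3, with a 95% interval of 1.94 to 12.9 for counting error only. The others were chr10:99441130-99441371, with 1 count against 21, and chr17:70488832-70489257 inside Dlgap1 at -0.83 (SE 0.27).

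The MPP4 against MPP3 effects of the recipient types did not track each other. Over the 13373 regions the correlation of log2 fold changes was -0.0305 (Pearson) and -0.0659 (Spearman), and 47.2% had the same sign. These contrasts share no library, but share the scaling and the estimate of the spread, and regions are not independent replicates. Of the 1308 regions with an unadjusted p under 0.05 in IκB– recipients, 900 higher (6.73%) and 408 lower (3.05%), 44.8% had the same sign in WT recipients. The 1308 became 572, 354 of them higher, without IκB– MPP4 replicate 1. After thinning, which left only 6864 regions tested, they became 431, with 269 higher. Of the 17 called, 10 had the same sign, with WT log2 fold changes from -0.38 to 0.63 and a median of 0.04. In both recipient types 32 regions had an unadjusted p under 0.05, and 13 of these had the same sign.

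**Figure D3:**
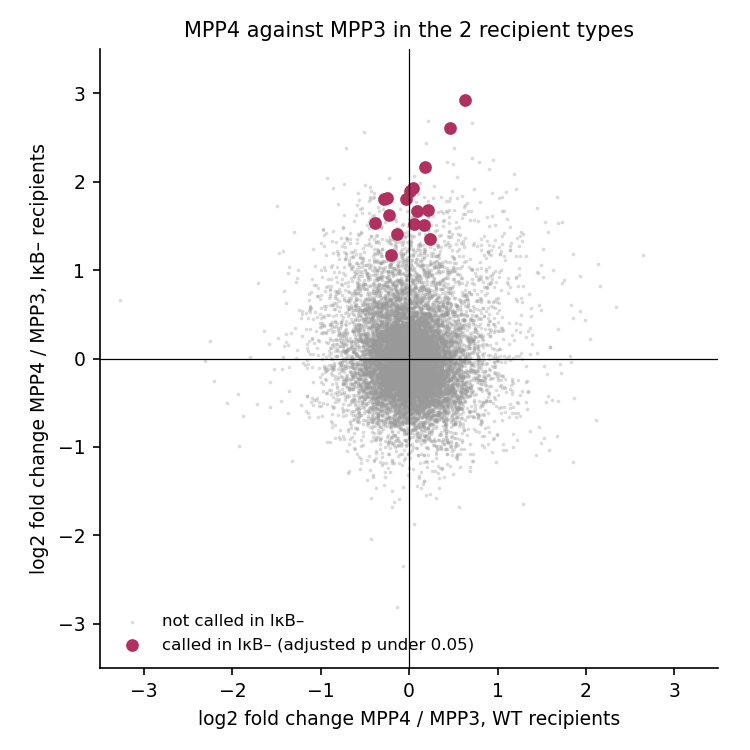
Each point is 1 of 13373 regions, with the log2 fold change of MPP4 against MPP3 in WT recipients on the horizontal axis and in IκB– recipients on the vertical axis. The 17 larger points are the regions called in IκB– recipients, which lie at 1.17 to 2.93 on the vertical axis and at -0.38 to 0.63 on the horizontal axis.

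The difference between recipient types was itself tested. As an interaction, 0 of 13373 regions were called (0%), with 526 higher in IκB– recipients (3.93%) and 289 lower (2.16%) at an unadjusted p under 0.05. DESeq2 gave 431 and limma-voom 988 at that level, with 0 called by each. Those 815 became 461 without IκB– MPP4 replicate 1 and 411 without WT MPP3 replicate 1. The smallest adjusted p in edgeR was 0.493. All 17 regions called in IκB– recipients had an unadjusted interaction p under 0.05, and none an adjusted one. They were chosen for a large IκB– effect, which is part of the interaction. A small unadjusted interaction p therefore largely follows from the choice. With the replicate block in both recipient types 10 of 12673 regions were called (0.0789%), all higher in IκB– recipients, with adjusted p-values from 0.0391. Among these were the Ctla2a region and chr16:51352156-51352431, which belong to the 17. With the block in IκB– recipients alone 0 of 13373 were called, with 1022 at an unadjusted p under 0.05 and a smallest adjusted p of 0.176.

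Regions were also counted by their place relative to genes, as a description, since regions are not replicates. They were placed within 1 kb of either end of a protein-coding gene (7521 tested), inside a gene (3369) or outside genes (2483). In IκB– recipients the median log2 fold change was -0.10 at gene ends, 0.10 inside genes and 0.29 outside genes. Of the regions outside genes, 378 were higher in MPP4 at an unadjusted p under 0.05 (15.2%) and 26 lower (1.05%), and inside genes 365 were higher (10.8%) and 72 lower (2.14%). At gene ends 157 were higher (2.09%) and 310 lower (4.12%). In WT recipients the 3 medians were 0.02, 0.01 and -0.05, and no class had more than 1.33% of its regions at that level in either direction. The difference between recipient types was not tested here. Without IκB– MPP4 replicate 1 the IκB– shares were 6.30% higher and 0.766% lower outside genes, 4.53% and 1.51% inside genes, and 0.794% and 2.03% at gene ends. With the gene-end covariate 168 regions outside genes were higher and 87 lower, and at gene ends 260 were higher and 223 lower, so that the order at gene ends turned.

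**Figure D4:**
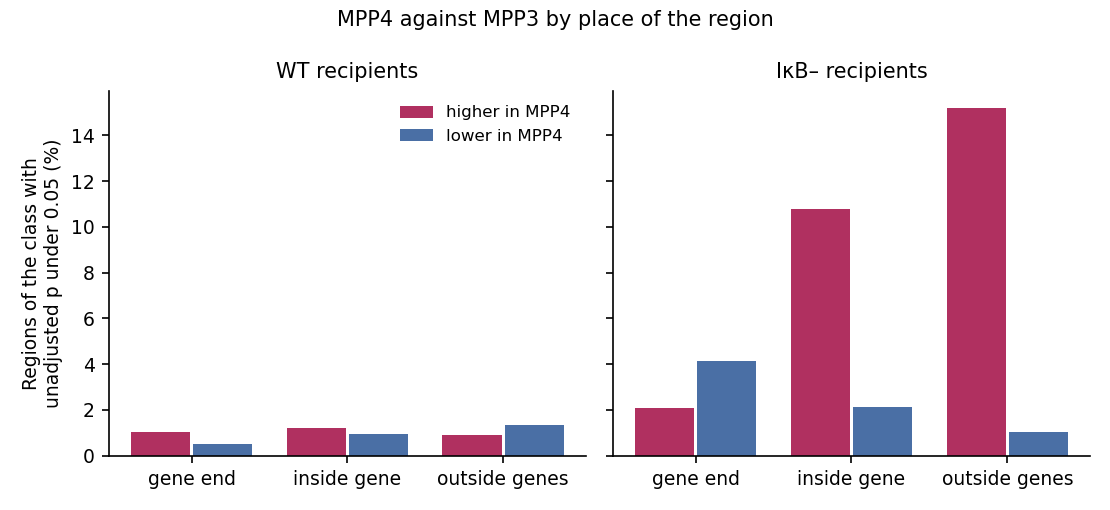
Bars give the percentage of regions of a class with an unadjusted p under 0.05, higher or lower in MPP4 than in MPP3, in WT (left) and IκB– (right) recipients, on a linear axis from 0. In IκB– recipients 15.2% of regions outside genes are higher and 4.12% of regions at gene ends are lower, while no bar for WT recipients passes 1.33%.

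Depth and the share of counts at gene ends were compared in the same libraries. Between the shallowest library, IκB– MPP4 replicate 2 with 126519 nuclear counts, and the deepest, IκB– MPP3 replicate 1 with 950203, depth differed 7.51-fold; mitochondrial counts ran only from 13496 to 17301. MPP4 libraries held 231336 ± 91803.5 nuclear counts (SD, n = 6) and MPP3 libraries 496857 ± 262612 (SD, n = 5). The log2 difference, averaged over the recipient types, was -1.04 (exact two-sided permutation p 0.015 within recipient types, 0.03 adjusted over 2 quantities, smallest possible p 0.005). It was -0.99 in WT and -1.09 in IκB– recipients, and it no longer passed without WT MPP3 replicate 1 (-0.864), IκB– MPP3 replicate 1 (-0.811) or IκB– MPP4 replicate 2 (-0.809). The share of nuclear counts at gene ends was 66.3% ± 3.53 in MPP4 (SD, n = 6) and 69.0% ± 1.80 in MPP3 (SD, n = 5). The difference was -0.954 percentage points in WT and -3.94 in IκB– recipients, and their average was -2.45 (exact permutation p 0.245, adjusted 0.245). Leaving out WT MPP4 replicate 1 gave -1.09, with 1.75 in WT recipients alone, and leaving out WT MPP4 replicate 3 gave -3.59, with -3.23 in WT recipients alone. The region at chr17:39847523-39848755, over the ribosomal RNA pseudogene Rn18s-rs5, took 0.226% to 0.605% of nuclear counts in MPP4 libraries and 0.133% to 0.303% in MPP3 libraries. Its share was highest in WT MPP4 replicate 1 and IκB– MPP4 replicate 2, the libraries with the fewest counts. The 20 regions with the highest mean CPM took 1.75% to 4.36% in MPP4 libraries and 1.37% to 2.09% in MPP3 libraries. That share was also highest in the same libraries. The part of depth and gene-end share in the region results was not tested beyond the thinned fit and the covariate fit given above.

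**Figure D5:**
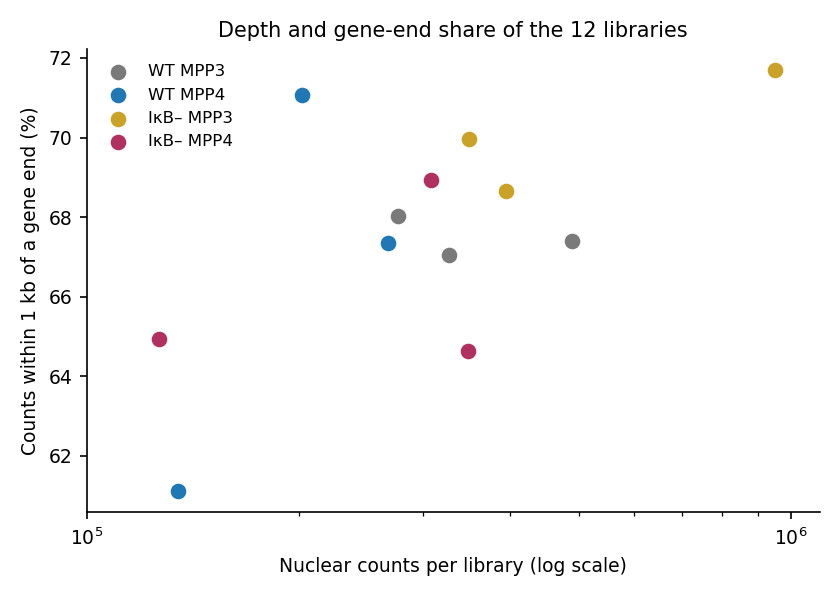
Each point is 1 of the 12 libraries, with nuclear counts on a log-scaled horizontal axis and the percentage of them within 1 kb of a gene end on the vertical axis. IκB– MPP3 replicate 1 lies apart at 950203 counts, and WT MPP4 replicate 1 has the lowest share, 61.1%, at 134748 counts.

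Lineage genes were described by list. In each list 0 regions were called over both recipient types, where 3.31% of all tested regions were higher and 1.52% lower at an unadjusted p under 0.05 and the median of all was 0.00. Of 37 regions at 21 lymphoid-priming genes, 18 were fitted higher and 19 lower in MPP4, and the 2 with an unadjusted p under 0.05 were those of Flt3. Zeb2, a zinc-finger repressor, had a region at 0.99 (SE 0.50, unadjusted p 0.0553), and Ikzf1 one at 0.50 (SE 0.25, unadjusted p 0.0571). Both were picked for high values and neither passed 0.05. The median of the list was -0.003 and its lowest region was at -0.58. In IκB– recipients, where 6.73% of all regions were higher and 3.05% lower at that level, 5 lymphoid-priming regions were higher and 0 lower. They were the 2 of Flt3 and 1 each of Bcl11a, at 0.98 (SE 0.37), Ikzf1, at 0.81 (SE 0.32), and Mef2c, at 1.28 (SE 0.59). In WT recipients there were 0 in either direction. Of 52 regions at 27 myeloid genes, 22 were fitted higher and 30 lower, with 0 at that level and a median of -0.07. In IκB– recipients 3 myeloid regions were higher and 3 lower, and in WT recipients 1 and 0. Among them Cebpa was at -0.09 (SE 0.19), Spi1 at -0.45 (SE 0.27) and -0.02 (SE 0.28), and Irf8, a factor of monocyte and dendritic cell development, at 0.40 (SE 0.43).

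Megakaryocyte and erythroid genes had 33 regions at 19 genes, with 1 higher and 2 lower in MPP4 at an unadjusted p under 0.05 and a median of -0.03. In IκB– recipients these were 1 and 3, and in WT recipients 3 and 0. Itga2b, which encodes the platelet integrin CD41, was lower at -0.76 (SE 0.28, unadjusted p 0.00928), with 44.3 ± 17.3 CPM in MPP4 (SD, n = 6) and 69.2 ± 23.7 CPM in MPP3 (SD, n = 5). Epor, the erythropoietin receptor gene, was at 0.79 (SE 0.36, unadjusted p 0.0367). A region 3981 bp from Gata2, a stem cell and megakaryocyte factor, was at -1.24 (SE 0.54, unadjusted p 0.0291). In IκB– recipients it held 4 counts in MPP4 and 64 in MPP3, a share 7.4 times higher in MPP3 (95% interval 2.75 to 28, counting error only), and its adjusted p in edgeR was 0.141, or 0.0197 with the block in both recipient types and 0.0421 with it in IκB– recipients alone.

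Stem cell genes had 31 regions at 20 genes, with 0 higher and 3 lower in MPP4 at an unadjusted p under 0.05 and a median of -0.04, with 1 and 2 in IκB– and 1 and 1 in WT recipients. The 3 were those of Gata2, of Runx1, a master factor of blood formation, and of Cdkn1c, which encodes the cell cycle inhibitor p57. The Runx1 region, inside the gene, had 40.2 and 68.6 CPM in WT MPP3 and 51.5, 14.9 and 35.8 CPM in WT MPP4. In IκB– recipients it had 76.0, 62.6 and 69.9 CPM in MPP3 and 39.8, 48.5 and 39.6 CPM in MPP4. The WT groups overlapped and the IκB– groups did not, and the log2 fold change was -0.79 (SE 0.28, unadjusted p 0.0068, adjusted p 0.94 in edgeR). Cdkn1c was at -0.84 (SE 0.33, unadjusted p 0.014). The 35 regions of cell cycle and growth genes had 0 in either direction and a median of -0.07, with 0 higher and 1 lower in IκB– recipients. Markers of other cell types that a gate could let in had few tested regions: 2 for mast cells and basophils, 1 for B cells, 4 each for T and NK cells and for granulocytes and macrophages, and 7 for dendritic cells. Flt3 gave the 2 of these with an unadjusted p under 0.05. In IκB– recipients another dendritic cell region, near Siglech, was at 1.07 (SE 0.35, adjusted p 0.254 in edgeR, 0.0357 with the block in both recipient types and 0.121 with it in IκB– recipients alone).

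The NF-κB pathway list was included because the recipients are named after its inhibitors, although the donor cells themselves were WT. Of its 38 regions at 24 genes, 0 were higher and 3 lower in MPP4 at an unadjusted p under 0.05, with a median of -0.03. In IκB– recipients 2 were higher and 1 lower, with a median of -0.12: regions of Tnfrsf1b, a TNF receptor gene, at 1.42 (SE 0.50) and 0.63 (SE 0.27), and Nfkbia at -1.04 (SE 0.44). In WT recipients 0 were higher and 1 lower, near Bcl3 at -0.92 (SE 0.41). The 3 over both recipient types cover gene starts: Nfkbia and Nfkbie, which encode the inhibitors IκBα and IκBε, and Traf3, which encodes an adaptor that restrains the non-canonical arm of the pathway. They are shown because each holds a match to the κB consensus in the 250 bases before the annotated start. Sequences are from RefSeq (GRCm38.p6), 5′ to 3′ in the direction of the gene, and capitals mark motif matches. In Nfkbia the capitals are a CTCF core (AGGGGGC, bases 195 to 189 before the start) and a κB match on the opposite strand (bases 29 to 20). In Nfkbie they are an AP-1 site (TGANTCA, bases 156 to 150) and a κB match (bases 106 to 97), and in Traf3 a κB match (bases 10 to 1).
Nfkbia, chr12:55492648-55492897, minus strand: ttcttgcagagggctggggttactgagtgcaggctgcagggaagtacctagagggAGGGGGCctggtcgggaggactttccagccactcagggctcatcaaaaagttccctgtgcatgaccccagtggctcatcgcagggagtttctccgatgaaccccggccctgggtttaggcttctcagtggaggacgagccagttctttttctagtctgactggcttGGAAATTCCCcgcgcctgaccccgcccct
Nfkbie, chr17:45555450-45555699, plus strand: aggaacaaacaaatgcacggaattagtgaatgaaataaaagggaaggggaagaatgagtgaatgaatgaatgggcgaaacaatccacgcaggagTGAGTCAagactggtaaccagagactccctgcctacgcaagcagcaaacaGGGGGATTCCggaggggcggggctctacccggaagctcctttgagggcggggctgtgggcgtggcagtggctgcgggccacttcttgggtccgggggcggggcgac
Traf3, chr12:111166120-111166369, plus strand: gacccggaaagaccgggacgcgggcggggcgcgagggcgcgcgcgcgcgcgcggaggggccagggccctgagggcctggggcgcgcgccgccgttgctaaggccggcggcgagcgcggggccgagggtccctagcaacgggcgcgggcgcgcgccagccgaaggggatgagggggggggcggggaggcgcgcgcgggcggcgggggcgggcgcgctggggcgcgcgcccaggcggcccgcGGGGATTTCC
The counted region covers 103 of these 250 bases in Nfkbia, 209 in Nfkbie and 157 in Traf3.

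At the Nfkbia start the level was 28.2 and 50.7 CPM in WT MPP3 and 7.36, 33.4 and 25.5 CPM in WT MPP4. In IκB– recipients it was 43.1, 47.6 and 84.4 CPM in MPP3 and 19.9, 24.3 and 36.3 CPM in MPP4. The IκB– groups did not overlap, the WT groups did, and the log2 fold change was -0.90 (SE 0.34, unadjusted p 0.0106, adjusted p 0.94 in edgeR). At the Traf3 start the WT values were 28.2 and 39.2 CPM in MPP3 and 22.1, 14.9 and 20.4 CPM in MPP4. The IκB– values were 55.5, 35 and 61.1 CPM in MPP3 and 28.5, 24.3 and 36.3 CPM in MPP4. All WT MPP4 libraries were below the WT MPP3 samples, the IκB– groups overlapped by 1 library, and the change was -0.78 (SE 0.33, unadjusted p 0.0213). Nfkbie was at -0.68 (SE 0.33, unadjusted p 0.0455), with 30.6 ± 10.8 CPM in MPP4 (SD, n = 6) against 45.3 ± 15.1 CPM in MPP3 (SD, n = 5).

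A κB match was not particular to these genes. It was found, on either strand, in 7.25% of the 32851 RefSeq start windows of 250 bases, and AP-1 and CTCF core matches in 6.75% and 9.43%. Of 6464 tested regions that overlap such a window, 657 had a κB match in it (10.2%). Their median log2 fold change was -0.05, against -0.03 for the other 5807. At an unadjusted p under 0.05, 6 of the 657 were higher and 25 lower, and 59 and 105 of the others. Within the NF-κB list, 8 start regions had a match and 5 of these were fitted lower in MPP4, with a median of -0.20, and of 9 without a match 6 were fitted lower, with a median of -0.08. A match is a run of letters in the window and not evidence of binding.

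Other regions with small p-values over both recipient types were called in that comparison neither with the 11 replicates nor with either block. Behind the Cenpe region came a region 32089 bp from Ntng1, which encodes a membrane-anchored netrin. Its values were 20.1 and 16.3 CPM in WT MPP3 and 51.5, 37.2 and 20.4 CPM in WT MPP4, and 9.24, 12.5 and 8.73 CPM in IκB– MPP3 and 71.1, 24.3 and 39.6 CPM in IκB– MPP4. All 6 MPP4 libraries were above all 5 MPP3 samples, at a log2 fold change of 1.65 (SE 0.40, adjusted p 0.713 in edgeR). A region inside Bcr, a GTPase regulator gene, was at the same fold change (SE 0.42, adjusted p 0.713), with 39.7 ± 20.8 CPM in MPP4 (SD, n = 6) and 12.3 ± 3.72 CPM in MPP3 (SD, n = 5). Within IκB– recipients the Ntng1 and Bcr regions were called with the block in both recipient types (adjusted p 0.00785 and 0.00873 in edgeR). They were also called there with the block in IκB– recipients alone (0.0173 and 0.0204).

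On the lower side the start of Ddx17, an RNA helicase gene, had 72.1 ± 15.9 CPM in MPP4 (SD, n = 6) against 119 ± 36.9 CPM in MPP3 (SD, n = 5), a log2 fold change of -0.70 (SE 0.22, adjusted p 0.819 in edgeR). Within IκB– recipients Ddx17 passed with the block in both recipient types (adjusted p 0.0332) and not with it in IκB– recipients alone (0.0969). The start of Sptan1, a spectrin gene, had 60.2 ± 10.3 CPM in MPP4 (SD, n = 6) and 101 ± 26.4 CPM in MPP3 (SD, n = 5), a change of -0.69 (SE 0.22, adjusted p 0.823). A region inside Acaca, at chr11:84179371-84179928, had 29.4 to 138 CPM in MPP4 and 145 to 169 CPM in MPP3. There all MPP4 libraries were below all MPP3 samples, and the change was -0.63 (SE 0.20, adjusted p 0.823). In IκB– recipients alone, the start of Stx4a, a membrane fusion gene, was at -1.08 (SE 0.31, adjusted p 0.171 in edgeR), which passed with the block in both recipient types (-0.98, adjusted p 0.0461) and not with it in IκB– recipients alone (adjusted p 0.108). At Stx4a the IκB– MPP4 libraries had 56.9, 40.4 and 39.6 CPM and the IκB– MPP3 libraries 82.2, 133 and 90.2 CPM.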

How the data were processed

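ATAC-seq counts of the 12 MPP3 and MPP4 libraries were used. The deposited values are raw counts per region for 13910 regions shared by all libraries, as the authors' table gives them. Per the submitters' processing notes the build is mm10, and Bowtie2, SAMtools, Picard, MACS2 2.1.0 and deepTools were used; their roles, the duplicate filter and the Tn5 offset are not given in the sources used here. The 5 mitochondrial regions were left out. Regions (median width 345 bp) were assigned to the protein-coding gene with the nearest end within 50 kb in RefSeq GRCm38.p6, which gave 12219 of 13905 nuclear regions a gene; the table has no exons or untranslated regions.

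Counts were fitted in R 4.3.3 with edgeR 4.0.16 (TMM, filterByExpr by the 4 groups, robust quasi-likelihood F test, 8 residual degrees of freedom with recipient type additive; 4 group means for each recipient type and for the interaction), with Benjamini-Hochberg adjustment over all regions tested. Replicates were compared by chi-square over regions with at least 10 counts. Totals and shares were compared by exact permutation within recipient types (200 arrangements) in Python 3.11.15 with SciPy 1.17.1. Counting intervals allow for counting error alone, because PCR duplicates of a molecule are not independent of each other. The fit was also run on simulated data, whose outcome is not given here and is not used as support. Alternatives were DESeq2 1.42.0, limma-voom 3.58.1, other scalings and filters, all 8 groups, thinning, a gene-end covariate, a replicate block (in both recipient types, or added after seeing the data in IκB– recipients only) and leaving out each library. The comparison and the gene lists were chosen with earlier results of these data known. Same-numbered MPP3 and MPP4 libraries deviated together by over 0.1 in each of 3 pairs of IκB– recipients (correlations 0.150, 0.175 and 0.225) and in 2 of 3 of WT recipients (0.181, 0.0536 and 0.145); the pairing comes from these data and not from the labels. Genes named were those of the sort gates, regions called over both recipient types and, per contrast and direction, the 3 regions with the smallest p (1 of these is not reported here); the other called regions, those called with the block, Bcl11a, Mef2c, Siglech, Tnfrsf1b, Bcl3, Zeb2, Ikzf1, Cebpa, Spi1, Irf8, Itga2b, Epor, Runx1, Cdkn1c, Nfkbia, Nfkbie, Traf3, the regions near Gata2 and Ly6c2 in the comparison over both recipient types, the Rn18s-rs5 region and the κB search were chosen after their values were seen. No genome of the build was used, so the regions themselves were not searched for motifs.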

Additional observations from a re-analysis of the deposited data

Results flagged for a closer look

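Of 34 sets of libraries examined for a library apart from the rest, 2 had one, and chance alone gives about 1 in 20. In MPP3 at the Bcr region (chr10:75078887-75079097), IκB– MPP3 replicate 3 had 5.82 CPM and the next lowest sample 12.5, a gap of 0.753 of the range against a limit of 0.71 for 5 samples. Among the MPP3 totals, IκB– MPP3 replicate 1 had 950203 nuclear counts and the next sample 488364, a gap of 0.712 of the range, computed with the mean of WT MPP3 replicates 2 and 3.

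At 5 of 30 regions compared between recipient types, MPP4 lay wholly on one side of MPP3 in WT and wholly on the other in IκB– recipients. These regions were named for this difference, and none passed its adjusted test in edgeR without the replicate block; with it in both recipient types the first 3 below did, each at an adjusted p of 0.0391, and with it in IκB– recipients alone none did (0.176 for those 3). The interaction log2 fold change was 1.94 at chr1:101902077-101902589 (-0.88 in WT and 1.06 in IκB– recipients, adjusted p 0.493). It was 3.21 at chr17:91632016-91632214 (-1.49 and 1.72, adjusted p 0.493) and 2.72 at chr10:105957452-105957843 (-0.74 and 1.98, adjusted p 0.493). At the start shared by Car7 and Nae1 it was -1.55 (0.81 and -0.74, adjusted p 0.621). At chr8:120371847-120372105, inside Gse1, it was -2.24 (0.57 and -1.68, adjusted p 0.626).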

How the results depend on the processing

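Over both recipient types the number of called regions was 0, and it was 1 with the 12 libraries apart, 1 (lower) with each library's gene-end share as a covariate, 7 with a replicate block (6 with it in IκB– recipients only), and 0 to 1 when 1 library was left out (1 without WT MPP3 replicate 1 or WT MPP4 replicate 3). In IκB– recipients it was 17, and 27 with the 12 libraries apart, 1 with DESeq2, 67 with limma-voom and 1 in a fit of all 8 groups. It was 0 after thinning, over 6864 regions, and 2 with the covariate (1 higher and 1 lower). With the replicate block it was 255 (231 higher and 24 lower), and 89 with it in IκB– recipients only (85 higher and 4 lower). It ran from 0 to 35 when 1 library was left out. The causes were not tested. The interaction had 10 calls with the replicate block in both recipient types and 0 otherwise, and WT recipients had 0 in every setting run. The log2 difference of total counts ran from -1.21 to -0.809 over the left-out libraries.

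By the correlations given with the processing, replicate numbers met the criterion for pairs in IκB– recipients and not in WT recipients. The planned block uses both, and the block in IκB– recipients only was added after seeing the data. Every library correlated best with its own number, which is a hint from the data and not from the design.

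The Ptprc region chr1:138136430-138136756 (-0.07) was at 0.0146 with limma-voom and ran from -0.24 to 0.0192 over the left-out libraries. The Kit region chr5:75575673-75575884 (-0.27) ran from -0.46 to 0.0726 over them, the latter without the summed WT MPP3 sample. Of 1190 comparisons of a region's value with its alternatives, 5 changed sign, all at these regions. Apart from the sort-gate genes, the regions compared were picked for a small p or a call, so few sign changes follow from the choice. A call was lost in 68 comparisons with other settings and in 85 with 1 library left out, and gained in 11 and 3. List medians also changed sign over both recipient types: lymphoid from -0.11 to 0.0712, myeloid from -0.10 to 0.0645, megakaryocyte and erythroid from -0.16 to 0.0252, stem cell from -0.16 to 0.127, NF-κB from -0.11 to 0.0355, mast cell and basophil from -0.57 to 0.492 and T and NK cell from -0.40 to 0.0379. The share at gene ends ran from -3.59 to -1.09 over the left-out libraries. The median was 6 to 50 counts per region in a library.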

Other observations

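The 2 regions assigned to Ly6c2, a monocyte antigen gene, lie 22424 and 21061 bp from its end, outside genes, and had log2 fold changes of 1.19 (SE 0.82) and 1.38 (SE 0.78) between MPP4 and MPP3 over both recipient types. Neither had an unadjusted p under 0.05 (0.184 and 0.112). They were picked for high values: of the 52 regions of the myeloid list 30 were fitted lower in MPP4, and the median was -0.07.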
